A study of Mus musculus with 7 samples.

Results

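The heat shock chaperones described here are 9 genes, Hspa1a, Hspa1b, Hspa8, Dnajb1, Hsph1, Hsp90aa1, Hsp90ab1, Hspd1 and Hspe1, taken by gene symbol from the 54532 entries of a gene expression table of mouse spleen cells. All 9 had a row, and all 9 passed the filter on low values (their mean FPKM over the 7 libraries had to reach 1). The RNA came from cells sorted for GFP from spleens of IL-17GFP/+ transgenic mice, in which GFP reports interleukin-17, and the labels call them Th17 cells, the interleukin-17-producing class of T helper cells. In the periodontitis group (3 libraries, numbered 2, 3 and 4) a silk ligature had been tied around the first molars of both sides of the lower jaw, and the health group (4 libraries, numbered 1 to 4) had none; both groups carried the same GFP reporter. Age, time under ligature and the number of mice behind a library are not given by the labels, so a p-value covers only library-to-library spread, which may be technical.

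Heat shock chaperones bind proteins that are unfolded or newly made and help them to fold, to be carried or to be destroyed. HSP70 proteins do this in cycles of ATP binding, which J proteins start and exchange factors such as HSP110 reset, HSP90 proteins take over late folding steps of kinases and receptors, and a chaperonin ring with its lid folds proteins inside mitochondria. Some of these genes are made at all times, while others are low until heat shock factor HSF1 binds repeated GAA units in their promoters, and in cells taken from tissue they can also answer warming, enzyme treatment or sorting.

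The values are FPKM, reads scaled by gene length and by 1 factor per library, so that levels can be set beside each other between genes. Reads recovered from them numbered 13513806 to 17891393 per library. The factor did not follow this depth alone. A read in a kilobase came to 0.0603 FPKM in health 1, with 17891393 reads, and to 0.0595 FPKM in periodontitis 3, with 14991990 reads. The labelled cell type went against its markers in the health libraries: Il17a gave 3.76, 0, 1.13 and 0 FPKM for health 1 to 4, against 361.9, 268.7 and 135.7 FPKM for periodontitis 2 to 4. All 8 T cell markers tested were higher in periodontitis (summed level 970.5 to 2230 FPKM, against 137.2 to 315 FPKM in health) and all 12 macrophage markers were lower (343.6 to 819.1 FPKM, against 4106 to 12030 FPKM). Of 10 neutrophil markers 4 were lower and none was higher, and their sums overlapped, with 16590 to 26480 FPKM in health against 5820 to 24110 FPKM in periodontitis. The sums of erythroid markers (2343 to 4160 FPKM in health, 5466 to 17730 FPKM in periodontitis; 2 of 7 called higher) and of plasma cell markers (399.8 to 661.5 and 690.6 to 2385 FPKM; 1 of 6 called higher) did not overlap either. Dendritic cell marker sums were also apart, with 29.8 to 42.6 FPKM in health against 11.6 to 20.5 FPKM in periodontitis (2 of 5 tested called lower). The sums of B cell and of NK cell markers overlapped, and 0 of them were called. None of the macrophage, neutrophil, T cell or Th17 markers was at 0 in every library of a group. Of the sex-linked genes, 4 Y-linked genes were at 0 in all health libraries and not in periodontitis, and Xist was lower in periodontitis, so the sex of the mice and periodontitis cannot be told apart. In such bulk RNA, fewer cells of a type and less RNA per cell cannot be told apart either.

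Dnajb1 rose in periodontitis, and it was the 1 member of 9 that passed the test. The test was limma with a variance trend on log2(FPKM + 1) over 12999 genes, with Benjamini-Hochberg adjusted p under 0.05, and it called 15.8% of those genes, 5.63% higher and 10.2% lower (30.2% had an unadjusted p under 0.05, among the members Dnajb1 and Hsp90aa1). No member was called lower by limma, by voom on the recovered reads or at an unadjusted p under 0.05 (0 in each). The groups' values did not overlap for 3 members, Dnajb1 and Hsp90aa1 on the higher side and Hspd1 on the lower side, against 29.8% of all genes tested (12.6% higher and 17.2% lower), so the members' share is near the background. With the libraries rescaled to one total the groups of Dnajb1 and Hspd1 still did not overlap, and those of Hsp90aa1 did. The median log2 fold change of the 9 members was 0.57, with 8 of 9 above 0, beside a median of -0.06 and 46.8% above 0 over all genes tested. That median is the value of Hspa1a and is not stable: without health 4 it was 0.14, with 6 of 9 above 0, and with the libraries rescaled to the same FPKM total, which moved the median of all genes by -0.38, it was 0.11, with 6 of 9 above 0.

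Dnajb1 (ENSMUSG00000005483, GRCm38 chromosome 8, 83608193 to 83612653, plus strand) encodes the HSP40 J protein that hands clients to cytosolic HSP70 and starts its ATP use. Health 1 to 4 gave 25.9, 31.1, 29.95 and 18.7 FPKM, from 878 to 1678 reads. Periodontitis 2 to 4 gave 59.3, 52.6 and 76.6 FPKM, from 2824 to 3480 reads. Every periodontitis library stood above every health library, and the highest was periodontitis 4. The means were 26.4 ± 5.62 FPKM (SD, n = 4) and 62.8 ± 12.4 FPKM (SD, n = 3), a ratio of 2.38. The log2 fold change came to 1.23 with SE 0.244 (95% interval 0.67 to 1.78, adjusted p = 0.011 with limma). The summed T cell, macrophage, erythroid, plasma cell and dendritic cell markers given above also stood apart between the groups, and their part in this result was not tested.

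**Figure D1:**
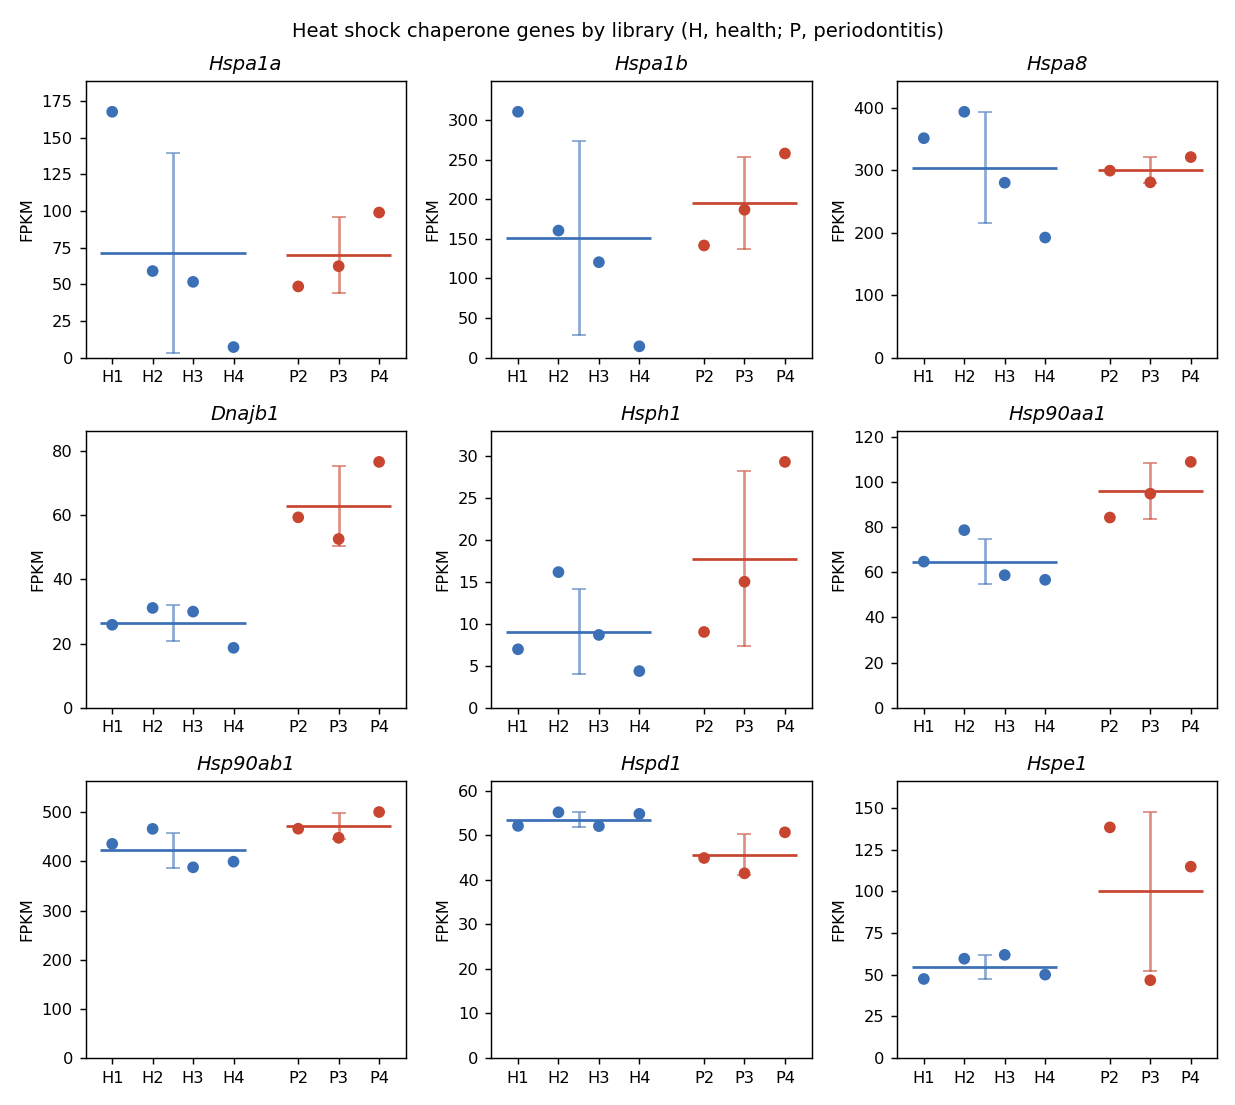
Level of each of the 9 chaperone genes in FPKM (vertical axes, each from 0) in each library (horizontal axes; H1 to H4 are health 1 to 4 and P2 to P4 are periodontitis 2 to 4). Points are libraries, and bars are the group mean with its SD; Dnajb1 lies at 18.7 to 31.1 FPKM in health against 52.6 to 76.6 FPKM in periodontitis, and Hspa1a and Hspa1b are lowest in health 4.

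The promoter sequence of Dnajb1 is shown because this was the member that passed the test. It covers the 203 bases before the RefSeq transcription start at 83608175 on the plus strand of GRCm38.p6, chr8:83607972-83608174, with capitals kept for heat shock units. The motif searched was a pair of facing units, GAANNTTC or TTCNNGAA, both strands being covered because each reads the same on the other. Of 32851 RefSeq promoter windows, 12.8% held it in the 250 bases before the start, the only part searched. No such pair is in the letters of this window, nor in the 250 bases before a second RefSeq start of Dnajb1, 83608548. Only exact pairs were searched, so imperfect units would be missed.
Dnajb1: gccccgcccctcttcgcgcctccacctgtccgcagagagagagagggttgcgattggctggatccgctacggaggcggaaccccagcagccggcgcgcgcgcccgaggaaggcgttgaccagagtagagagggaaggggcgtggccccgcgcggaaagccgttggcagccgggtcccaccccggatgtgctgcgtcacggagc

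Hspa1a and Hspa1b encode the same stress-inducible cytosolic HSP70 protein, or nearly so, from neighbouring genes without introns that are strongly made after heat shock and little made before it. Neither passed the test, and they were the members that varied most between the health libraries. The genes lie on the minus strand of chromosome 17, Hspa1a (ENSMUSG00000091971) at 34969190 to 34972156 and Hspa1b (ENSMUSG00000090877) at 34956436 to 34959238, with 9951 bases between them. Over the 2200 bases of their transcripts that could be aligned, 2181 were identical (99.1%), and the longest exact stretch was 638 bases, so how the reads were divided between the copies is uncertain. Their 250 bases before the start differ at 3 bases, and both hold 1 pair of heat shock units, in capitals, 104 to 97 bases before the start. They are shown because the copies varied together; the sequences are RefSeq GRCm38.p6, minus strand, chr17:34972157-34972406 for Hspa1a and chr17:34959239-34959488 for Hspa1b.
Hspa1a: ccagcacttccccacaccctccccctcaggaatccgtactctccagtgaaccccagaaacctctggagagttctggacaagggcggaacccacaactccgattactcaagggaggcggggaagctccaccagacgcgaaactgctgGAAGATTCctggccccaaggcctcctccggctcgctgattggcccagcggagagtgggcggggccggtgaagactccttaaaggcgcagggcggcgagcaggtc
Hspa1b: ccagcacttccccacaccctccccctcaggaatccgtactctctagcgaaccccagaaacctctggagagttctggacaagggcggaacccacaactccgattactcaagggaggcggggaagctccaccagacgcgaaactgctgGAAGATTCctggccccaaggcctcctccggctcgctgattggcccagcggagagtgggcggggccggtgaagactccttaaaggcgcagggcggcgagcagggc

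For Hspa1a, health 1 to 4 gave 167.6, 59.0, 51.7 and 7.21 FPKM, against 48.5, 62.3 and 98.9 FPKM for periodontitis 2 to 4. For Hspa1b the health values were 310.3, 160.4, 120.5 and 14.3 FPKM, against 141.6, 186.6 and 257.6 FPKM with ligature. Health 1 was the highest and health 4 the lowest of all 7 libraries for both copies, so that the health group spanned the whole periodontitis group. The highest health library exceeded the lowest by 23.2-fold for Hspa1a and 21.7-fold for Hspa1b, against 2.04-fold and 1.82-fold in periodontitis. The spread in health was at percentile 99.1 and 99.2 of all genes tested, by the SD of log2(FPKM + 1).

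The low values of health 4 rested on 314 reads for Hspa1a (95% Poisson interval 6.44 to 8.06 FPKM) and 588 reads for Hspa1b (13.2 to 15.5 FPKM). These intervals cover counting error only, and they lie far below the other 6 libraries. The log2 fold change came to 0.57 with SE 0.864 (95% interval -1.40 to 2.54, adjusted p = 0.691 with limma) for Hspa1a and 0.96 (SE 0.890, 95% interval -1.08 to 2.99, adjusted p = 0.506) for Hspa1b. Both values rested on single libraries: without health 4 they were -0.26 and 0.06, without health 1 they were 1.20 and 1.51, and without periodontitis 4 that of Hspa1a was 0.29. Hspa1b was 1.85 to 2.99 times Hspa1a in every library. The span of Hspa1a shares 2225 bases with the gene Gm20481 on the opposite strand, which was at 0 FPKM in every library. The strand setting of the counting is not given, and the part of this overlap in the level of Hspa1a was not tested. Together the copies made up 32.7, 16.6, 16.4 and 2.70% of the summed FPKM of the 9 members for health 1 to 4, against 14.7, 20.3 and 22.9% for periodontitis 2 to 4.

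Hspa8 (ENSMUSG00000015656, chromosome 9, 40800984 to 40810087, plus strand) encodes HSC70, the HSP70 that cells make without stress. Health 1 to 4 gave 351.3, 393.6, 280.0 and 192.3 FPKM, against 299.3, 280.6 and 321.1 FPKM for periodontitis 2 to 4. All 3 periodontitis libraries lay inside the health range, and health 4 was again the lowest. The log2 fold change came to 0.03 with SE 0.307 (95% interval -0.67 to 0.73, adjusted p = 0.961 with limma), and its sign turned under 3 rescalings, library weights and without health 4 or periodontitis 4.

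Hsph1 (ENSMUSG00000029657, chromosome 5, 149614287 to 149636376, minus strand) encodes HSP110, a relative of HSP70 that exchanges its nucleotide and helps to pull aggregates apart. It was the lowest member: health 1 to 4 gave 6.98, 16.2, 8.70 and 4.38 FPKM, against 9.05, 15.0 and 29.3 FPKM for periodontitis 2 to 4. Its groups overlapped, with health 4 the lowest library and periodontitis 4 the highest. The log2 fold change came to 0.88 with SE 0.465 (95% interval -0.18 to 1.95, adjusted p = 0.241 with limma), and without periodontitis 4 it was 0.47. Its RefSeq promoter held 1 pair of heat shock units, in capitals in the stretch 44 to 15 bases before the start at 149636336, chr5:149636351-149636380, minus strand of GRCm38.p6. The pair touches an annotated exon, the gene as placed above reaching to 149636376.
Hsph1: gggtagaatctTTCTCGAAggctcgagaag

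Hsp90aa1 and Hsp90ab1 encode the stress-inducible and the constant form of cytosolic HSP90. Hsp90ab1 was the most abundant member and varied little, while Hsp90aa1 had its 3 highest values in the periodontitis libraries without passing the adjusted threshold. Hsp90aa1 (ENSMUSG00000021270, chromosome 12, 110690605 to 110702728, minus strand) gave 64.7, 78.7, 58.7 and 56.7 FPKM for health 1 to 4, against 84.3, 94.8 and 108.9 FPKM for periodontitis 2 to 4. The groups did not overlap, and the log2 fold change came to 0.57 with SE 0.213 (95% interval 0.08 to 1.05, unadjusted p = 0.027, adjusted p = 0.113 with limma). With the libraries rescaled to the same FPKM total its groups overlapped and the log2 fold change was 0.10 (adjusted p = 0.762), and under quantile normalization it was 0.35. Hsp90ab1 (ENSMUSG00000023944, chromosome 17, 45567775 to 45573271, minus strand) gave 435.8, 466.4, 388.0 and 399.6 FPKM for health, against 466.6, 448.1 and 500.6 FPKM for periodontitis. Those groups overlapped, and the log2 fold change came to 0.16 with SE 0.253 (95% interval -0.42 to 0.74, adjusted p = 0.703), with its sign turning under 3 rescalings; rescaled to one total, its periodontitis values were all below its health values.

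Hspd1 and Hspe1 encode HSP60 and HSP10, the ring and the lid of the mitochondrial chaperonin, and start from opposite strands of the same stretch of chromosome 1. Hspd1 (ENSMUSG00000025980, 55077835 to 55088243, minus strand) and Hspe1 (ENSMUSG00000073676, 55088132 to 55091307, plus strand) overlap by 112 bases, and the strand setting of the counting is not given in the sources used here. Of the members' promoter windows, only those before the Hspe1 start and before the Hspd1 start at 55087932 held at least 3 units in a row. This is the pair searched with a further alternating unit after the same gap NN, either strand, in 0.466% of RefSeq promoters. The window before the other Hspd1 start, 55088243, held none. The find is 1 site of 4 alternating units, holding 2 overlapping matches and read from both strands. The stretch with its capitals over the units is read on the plus strand, chr1:55088053-55088082 of GRCm38.p6, 95 to 66 bases before the Hspe1 start, and it lies inside an annotated exon of an Hspd1 transcript.
Hspe1: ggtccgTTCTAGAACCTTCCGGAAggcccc

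For Hspd1, health 1 to 4 gave 52.1, 55.2, 52.1 and 54.8 FPKM, against 44.9, 41.5 and 50.7 FPKM for periodontitis 2 to 4. The groups did not overlap, but the shift was small, and the log2 fold change came to -0.23 with SE 0.179 (95% interval -0.64 to 0.18, adjusted p = 0.422 with limma). The spread of Hspd1 in health was at percentile 1.08 of all genes tested, the smallest among the members. With the libraries rescaled to the same FPKM total, Hspd1 passed the threshold as lower, at -0.69 (adjusted p = 0.026).

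For Hspe1, health 1 to 4 gave 47.4, 59.5, 61.9 and 49.98 FPKM, against 138.4, 46.6 and 114.8 FPKM for periodontitis 2 to 4. Periodontitis 2 and 4 stood above all health libraries and periodontitis 3 below them. The log2 fold change came to 0.73 with SE 0.364 (95% interval -0.10 to 1.56, adjusted p = 0.219 with limma). It was 1.20 without periodontitis 3 (adjusted p = 0.016 with limma) and 0.42 without periodontitis 2 (adjusted p = 0.440). Hspe1 is the shortest member, with 1474 bases counted, and short genes were high in periodontitis 2: there the median log2 difference from the health mean was 1.14 for genes under 1000 bases, 0.75 for 1000 to 2000 bases and -0.36 for 4000 bases or more. In periodontitis 4 the same medians were -0.33, -0.05 and -0.15. With the trend over gene length removed, a setting chosen after seeing the data, Hspe1 was at 0.58 (adjusted p = 0.204), and the part of gene length in its level was not tested further.

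**Figure D2:**
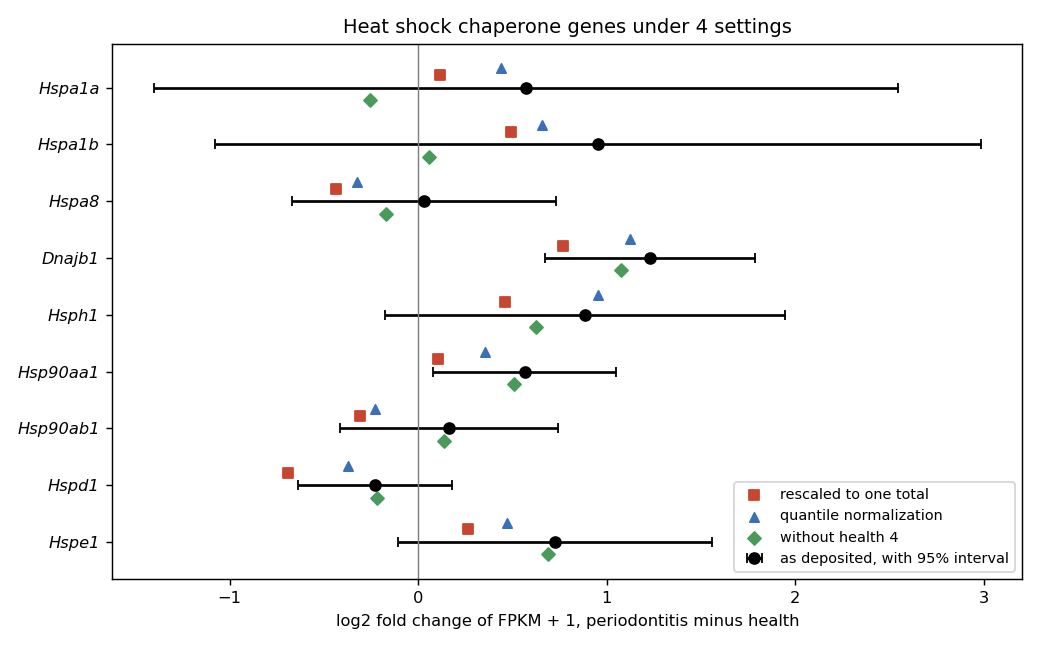
Log2 fold change of FPKM + 1, periodontitis minus health (horizontal axis), of each chaperone gene; black points with bars are the deposited scale with 95% intervals, and coloured marks are libraries rescaled to one total, quantile normalization and the fit without health 4. Dnajb1 has the largest value at 1.23, Hspa1a moves from 0.57 to -0.26 without health 4, and Hspa8 and Hsp90ab1 fall on both sides of 0.

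By mean level in health the order was Hsp90ab1 (422.4 FPKM), Hspa8, Hspa1b, Hspa1a, Hsp90aa1, Hspe1, Hspd1, Dnajb1 and Hsph1 (9.06 FPKM). Neighbours in this order overlapped over the 4 libraries, except that Dnajb1 lay below Hspd1 and above Hsph1 without overlap. In periodontitis the order was Hsp90ab1 (471.8 FPKM), Hspa8, Hspa1b, Hspe1, Hsp90aa1, Hspa1a, Dnajb1, Hspd1 and Hsph1 (17.8 FPKM). There the values of Hspe1, Hsp90aa1, Hspa1a and Dnajb1 overlapped from neighbour to neighbour, and all other neighbours were apart. Dnajb1 was thus below Hspd1 in every health library and above it in every periodontitis library. Health 4 was the lowest health library for 6 of the 9 members (27.7% of all genes tested), and periodontitis 4 was the highest periodontitis library for 8 of 9 (29.2% of all genes tested), Hspe1 being highest in periodontitis 2. The 9 members took 0.444, 0.465, 0.365 and 0.272% of recovered reads for health 1 to 4, against 0.368, 0.458 and 0.534% for periodontitis 2 to 4, which overlap.

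Ratios of members within a library do not depend on the 1 factor that scales each library, but a trend over gene length need not cancel in them. They set stress-inducible genes beside constant partners, and the chaperonin's ring beside its lid, and with 4 against 3 libraries the smallest p an exact two-sided permutation test over 35 splits can give is 0.057, so no ratio could pass 0.05. Dnajb1 over Hspa8 was 0.0736, 0.0790, 0.107 and 0.0971 for health 1 to 4, against 0.198, 0.187 and 0.239 for periodontitis 2 to 4. These did not overlap, and the ratio was 2.35-fold higher in periodontitis, 1.23 on the log2 scale (exact permutation p = 0.057, adjusted over the 5 ratios 0.143). Hsp90aa1 over Hsp90ab1 was 0.149, 0.169, 0.151 and 0.142 for health, against 0.181, 0.212 and 0.217 for periodontitis. These also did not overlap, with a ratio 1.33-fold higher, 0.41 on the log2 scale (exact permutation p = 0.057, adjusted 0.143).

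The other 3 ratios overlapped between the groups. Hspa1a plus Hspa1b over Hspa8 ranged from 0.112 to 1.36 in health and from 0.635 to 1.11 in periodontitis (log2 difference 0.84, exact permutation p = 0.457, adjusted 0.457), and the difference was 0.14 without health 4 and 1.34 without health 1. Hsph1 over Hspa8 had a log2 difference of 0.94 (exact permutation p = 0.171, adjusted 0.214), and of 0.55 without periodontitis 4. Hspd1 over Hspe1 was 1.10, 0.927, 0.842 and 1.10 in health, so that ring and lid transcripts were near parity, and 0.325, 0.890 and 0.442 in periodontitis (log2 difference -0.97, exact permutation p = 0.114, adjusted 0.191). Periodontitis 3 was the library inside the health range. Hspd1 has 2642 bases counted and Hspe1 1474, while Dnajb1 has 3204, Hspa8 4301 and Hsph1 7266. The part of the length trend of periodontitis 2 in the 5 ratios was not tested.

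**Figure D3:**
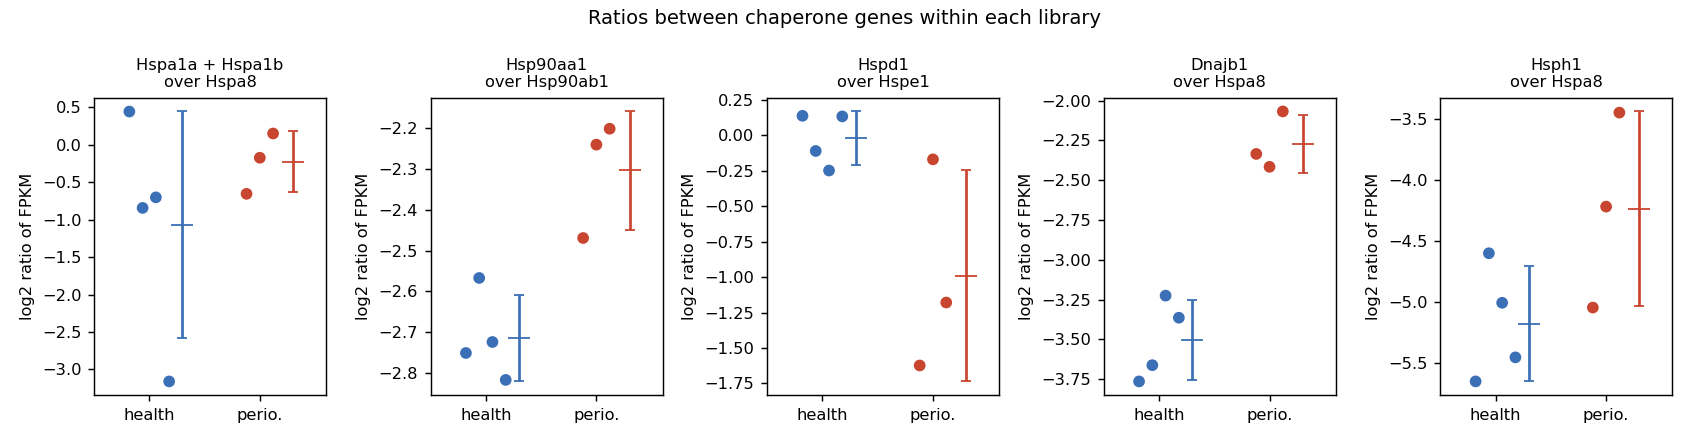
Log2 ratio of FPKM between chaperone genes within each library (vertical axes, each with its own range) for health and periodontitis libraries; points are libraries, and the horizontal mark and bar are the group mean with its SD. Dnajb1 over Hspa8 and Hsp90aa1 over Hsp90ab1 do not overlap between groups, and the first panel spans 0.112 to 1.36 as a plain ratio in health.

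Beyond the members, 5 of 113 other chaperone genes tested passed, 4 higher and 1 lower (4.42%, beside 15.8% of all genes), in lists chosen with earlier results of these data known. None of the 4 heat shock factor genes tested passed with limma (median log2 fold change 0.17); 2 had an unadjusted p under 0.05, and voom on the recovered reads called 1. Hsf1, the factor that drives the heat shock response, was at 5.39 to 8.15 FPKM in health against 5.31 to 11.9 FPKM in periodontitis. Hsf2 had a log2 fold change of 0.72 (adjusted p = 0.139 with limma) and Hsf4 one of -1.13 (adjusted p = 0.113). None of 8 other HSP70 and HSP110 genes passed with limma or voom (median -0.17, 1 with an unadjusted p under 0.05); Hspa9, the mitochondrial HSP70, was at 34.3 to 40.6 FPKM in health against 22.3 to 30.5 FPKM in periodontitis (log2 fold change -0.55, adjusted p = 0.092), and Hspa2, an HSP70 best known from testis, had a log2 fold change of 0.75 (adjusted p = 0.241).

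Among 38 other J protein genes, 2 rose and 1 fell (median -0.05). Dnaja4, a J protein of the same machine as Dnajb1, gave 1.76, 2.52, 2.48 and 2.37 FPKM for health 1 to 4, against 4.90, 6.50 and 6.88 FPKM for periodontitis 2 to 4. The groups did not overlap, and the log2 fold change came to 1.11 with SE 0.226 (adjusted p = 0.013 with limma). Dnajc9, a histone chaperone with a J domain, rose by 0.95 (adjusted p = 0.028), and Dnajc13, which acts on endosomes, fell by 0.93 (adjusted p = 0.038); each of these 2 calls was lost in 11 of 21 other settings, and that of Dnaja4 in 3 of 20.

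Of 12 exchange factors and regulators of HSP70 none passed with limma or voom (median 0.24, 4 with an unadjusted p under 0.05). Bag1, a nucleotide exchange factor, was at 55.9 to 64.2 FPKM in health against 77.8 to 110.3 FPKM in periodontitis, without overlap (log2 fold change 0.61, adjusted p = 0.081 with limma), and Sil1, the exchange factor of the endoplasmic reticulum, had a log2 fold change of -0.82 (adjusted p = 0.091). Of 15 HSP90 co-chaperones 1 rose (median 0.11): Unc45a, which helps HSP90 to fold myosin, was at 7.65 to 10.2 FPKM in health against 18.9 to 24.1 FPKM in periodontitis. Its log2 fold change came to 1.13 with SE 0.194 (adjusted p = 0.0058).

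The cytosolic chaperonin and prefoldin list had 1 of 14 genes higher (median 0.28). That gene was Pfdn6, a prefoldin subunit, at 19.3 to 28.5 FPKM in health and 82.4, 35.4 and 45.8 FPKM for periodontitis 2 to 4 (log2 fold change 1.04, adjusted p = 0.049 with limma), a call lost in 12 of 21 other settings; short genes were high in periodontitis 2, as given for Hspe1. Of 10 small heat shock protein genes 3 were tested and none passed with limma, with voom or unadjusted (0 in each, median -0.35), with log2 fold changes of 0.64 for Hspb11 (adjusted p = 0.271) and -0.51 for Hspb6 (adjusted p = 0.581). None of 15 chaperones of the endoplasmic reticulum passed with limma, with voom or unadjusted (0 in each, median -0.20), Calr, a lectin chaperone, having a log2 fold change of -0.57 (adjusted p = 0.319) and Dnajc3 one of -0.46 (adjusted p = 0.302). None of 13 mitochondrial chaperones and proteases passed with limma or voom (median -0.08, 1 with an unadjusted p under 0.05), Dnaja3, the mitochondrial J protein, having one of -0.26 (adjusted p = 0.474).

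**Figure D4:**
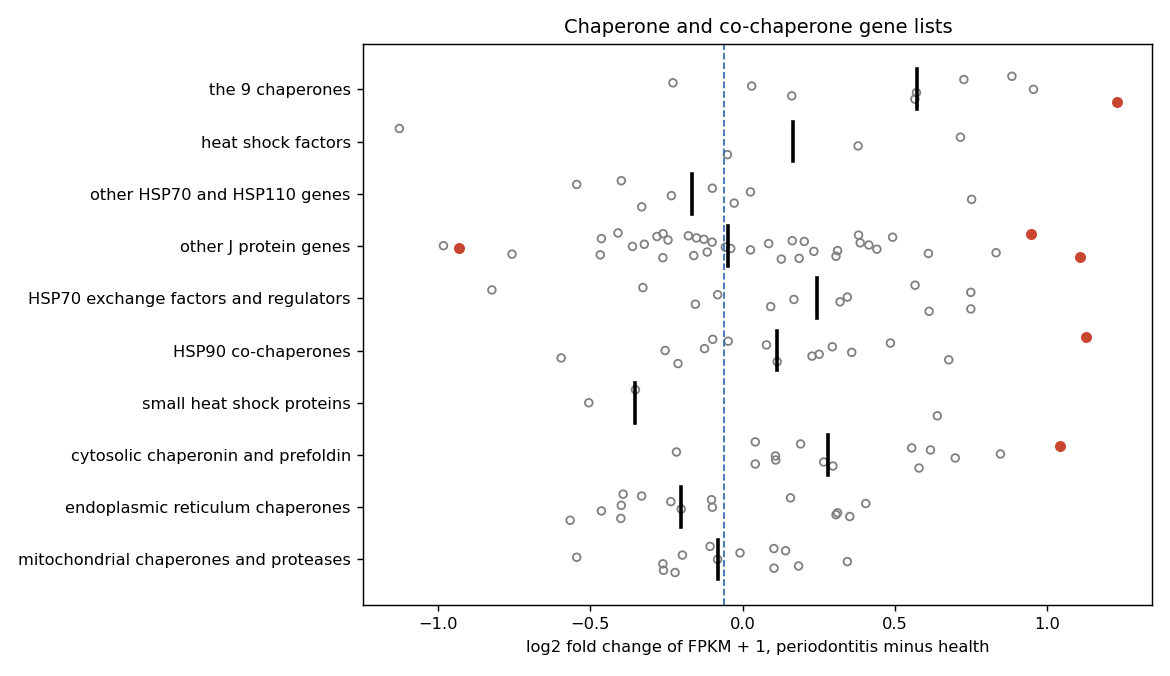
Log2 fold change of FPKM + 1, periodontitis minus health (horizontal axis), for each gene tested of the 9 chaperones and 9 further chaperone lists (rows); filled red points passed the adjusted threshold, open points did not, black bars are list medians and the dashed line is the median of all genes tested, -0.06. The median of the 9 chaperones lies at 0.57, and at 0.14 without health 4 or 0.11 with libraries rescaled to one total.

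Early response genes are transcription factors and their brakes that switch on within minutes of a stimulus, cell handling included. Of 13 tested, 5 rose and 1 fell (median 0.93), beside 5.63% higher and 10.2% lower of all genes tested. The groups' values did not overlap for 10 on the higher side and 1 on the lower side, against 12.6% and 17.2% of all genes tested. Their summed level was 807.7 to 1116 FPKM in health against 2122 to 2462 FPKM in periodontitis, with no overlap. Junb rose by 1.75 on the log2 scale (adjusted p = 0.0049 with limma) and Dusp1, a MAP kinase phosphatase, by 1.49 (adjusted p = 0.0027 with limma). Jund rose by 1.65 (adjusted p = 0.0093 with limma, lost in 1 of 21 other settings). Jun rose by 1.47 (adjusted p = 0.019 with limma, lost in 4 of 21 other settings) and Nr4a1 by 0.84 (adjusted p = 0.044, lost in 13 of 21 other settings). Ier3, an early gene tied to cell survival, fell by 1.12 (adjusted p = 0.016, lost in 2 of 21). Their part in the level of Dnajb1 was not tested.

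The genes whose pattern over the 7 libraries was most like the mean of the 9 members were Creld2, Dnajb2, Rars2, Gnptg and Slx1b. The measure was the root mean square difference of centred log2(FPKM + 1) values, which was 0.147 to 0.198 for these 5 genes. The members themselves lay farther from their own mean, from 0.297 for Hspa8 to 0.904 for Hspa1b. The 5 genes were picked for the smallest difference among the protein-coding genes tested, so their lying nearer follows from that choice. All 5 genes were lowest in health 4. Creld2, Dnajb2 (a J protein best known from neurons), Rars2 and Slx1b were highest in periodontitis 4, and Gnptg was highest in periodontitis 2. All values come from the same 7 libraries and share their depth, so the likeness is a description.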

How the data were processed

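RNA sequencing libraries of sorted spleen cells were measured in 4 health and 3 periodontitis samples. The authors deposited 1 gene table in FPKM (reads scaled by gene length and 1 factor per library), with gene lengths. Per the submitters' processing notes, HISAT2 2.0.5, featureCounts 1.5.0-p3 and DESeq2 were used with mm10; their roles, the annotation and the strand setting are not stated in those notes. FPKM multiplied by gene length and divided by 1 factor per library, the FPKM of 1 read in a kilobase, came out as whole reads in every value within 0.001 of a read, and median-of-ratios factors of the deposited FPKM were the same, 1.01, in all 7 libraries. Features under 200 bases took 1.40 to 36.7% of a library's summed FPKM. No 2 libraries agreed within sampling noise (lowest chi-square per degree of freedom 27.3). Replicate numbers are those of the descriptions; the titles number the periodontitis samples 1 to 3.

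Of 54532 entries, the 12999 that reached a mean of 1 FPKM were tested with limma 3.58.1 (R 4.3.3, variance trend) on log2(FPKM + 1), 4 against 3 libraries, two-sided, Benjamini-Hochberg over all genes tested; fold changes on this scale understate those of low genes. Ratios were tested by exact permutation, checked with SciPy 1.17.1. Transcripts were aligned with BLAST 2.17.0, and promoters come from RefSeq GRCm38.p6, where 6 of the 9 members matched. All 9 members were named, and from each list every gene past the threshold where at most 6 were, or otherwise the 2 of smallest p; values of Hsf1 were added after they were seen. The members and lists were chosen with earlier results of these data known. The method was tested on simulated data.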

Additional observations from a re-analysis of the deposited data

How the results depend on the processing

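Of 21 other settings, 19 called 1 member higher and 20 called 0 lower. The median-of-ratios setting could hardly differ, because the deposited values already had equal factors (732 genes higher and 1321 lower, as in the main fit). With each library rescaled to the same FPKM total, 417 genes were called higher and 2723 lower, 1 member (Hspd1) was lower, the median of all genes moved by -0.38 on the log2 scale and 13.3% of calls were higher, against 35.7% as deposited. Rescaling without features under 200 bases moved the median by -0.15 (27.0% of calls higher) and quantile normalization by 0.12 (42.7%). Hspa8 turned to -0.44, -0.17 and -0.32 and Hsp90ab1 to -0.31, -0.037 and -0.23 in these 3 settings, in that order, and Hspa8 to -0.022 with library weights; the cause was not tested. Leaving out each library in turn gave 445 to 879 genes higher, 871 to 1372 lower and 1 to 2 members higher. The fewest came without health 2 (445 higher, 871 lower); without health 1 and health 3, 484 and 482 were higher. The second member was Hspe1, without periodontitis 3. Over these 7 fits Hspa1a ran from -0.26 (without health 4) to 1.20 (without health 1) and Hspa8 from -0.17 (without health 4) to 0.17 (without health 2), with -0.019 without periodontitis 4. Libraries of equal number showed no clear shared deviation from their group means (correlations -0.05, -0.02 and 0.04). So few libraries cannot exclude pairing, and the titles number the periodontitis samples otherwise. With the replicate block, 321 genes were higher, 657 lower and 0 members higher (Dnajb1 1.23, adjusted p = 0.086 with limma). In the 20 other settings Dnajb1 was called higher, at 0.77 to 1.35, with adjusted p from 0.0095 to 0.049. Dnaja4 lost its call in 3 settings. The 5 ratios kept their direction in all 9 settings each. No outlying health library was found among 41 results tested. Genes were tested there on plain FPKM, where a low library such as health 4 for Hspa1a (7.21 FPKM) can hardly be flagged. The 3 periodontitis libraries are too few for that test. The depth did not limit the members, each with at least 314 reads in every library.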
